A study of Homo sapiens with 16 samples.

Results

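The 10 genes described here are effectors of the ATF4 and CHOP arm of the integrated stress response: the transcription factors ATF4, DDIT3 (the gene of CHOP) and ATF3, the glutathione-degrading enzyme CHAC1, the feedback regulators PPP1R15A and TRIB3, the mTORC1 inhibitors DDIT4 and SESN2, and the secreted proteins STC2 and GDF15. They were found by the Entrez identifiers of these symbols among 16697 genes listed in at least 1 of 16 RNA-seq libraries. Each was listed in 16 of 16 libraries, and all 10 were among the 13633 genes that passed a filter on low counts. The genes were chosen by their fold changes against untreated cells in each line and the difference of those changes between lines. These values, and every other contrast between times that follows from them by subtraction, are described for the 10 with no p-value, and "called" there only sorts values by the rule given below. Cells were given cinobufagin, a toad venom steroid that blocks the sodium pump Na,K-ATPase, at 5 µmol/L. HepG2, labelled as a liver cancer line, had 3 libraries at 12 h, 3 at 24 h and 1 untreated library, and Huh-7, labelled likewise, had 3 libraries at 12 h, 3 at 24 h and 3 untreated. The labels name no vehicle, passage or clone, and the untreated libraries are given as 0 h of treatment, so drug and time in culture cannot be told apart.

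In the integrated stress response, kinases that sense unfolded proteins, amino acid shortage, double-stranded RNA or haem shortage phosphorylate the translation factor eIF2. General protein synthesis then slows while translation of ATF4 mRNA is favoured, and ATF4 switches on genes of amino acid supply and, together with CHOP, genes of feedback and cell death. In liver cells, which secrete much protein, the response is known from endoplasmic reticulum stress and from amino acid deprivation. Much of ATF4 control is translational, and the RNA levels below do not measure it.

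Libraries held 9543048 to 10457853 expected counts. Levels are CPM, counts over the library total, on the TMM scale, which is meant to remove composition differences between libraries. Where genes are compared with each other, levels are FPKM, which also divides by gene length. Calls required at least a 2-fold change and an adjusted p (Benjamini-Hochberg) under 0.05 in edgeR's quasi-likelihood test. Untreated HepG2 has no spread of its own and was taken to vary like the 5 replicated groups, so every HepG2 value against untreated cells rests on that 1 library. Separate cultures are not stated for the libraries of a group, and the p-values therefore measure the spread between libraries, which may be technical. Marker gene levels in this paragraph are CPM of the plain library total, not on the TMM scale. Their courses over time are therefore not on the scale of the effectors. Both lines were nearly without hepatocyte markers: in untreated cells 2 of 13 in HepG2 and 3 of 13 in Huh-7 reached 1 CPM, AFP stood at 0.0 CPM in HepG2 and 0.03 CPM in Huh-7, and APOA1 was at 0.0 CPM in both. The summed hepatocyte markers were 6.5 CPM in untreated HepG2 against 40.9 to 42.6 CPM in untreated Huh-7, where it was mostly HNF4A (0.71 CPM in HepG2 and 37.84 CPM in Huh-7). In treated libraries the hepatocyte sum was 3.8 to 5.3 CPM at 12 h and 6.5 to 9.4 CPM at 24 h in HepG2, and 5.0 to 5.9 CPM at 12 h and 5.2 to 5.8 CPM at 24 h in Huh-7. Of the trophoblast markers, ALPP was at 4483.21 CPM in untreated HepG2 and 553.77 CPM in untreated Huh-7, GATA3 at 15.8 and 0.21 CPM, and CGA at 0.1 and 29.18 CPM. Their sum at 0, 12 and 24 h was 4499.1, 4733.8 to 4942.4 and 4337.2 to 4869.3 CPM in HepG2, and 567.9 to 596.6, 725.0 to 745.6 and 553.9 to 588.3 CPM in Huh-7. The sum of 5 epithelial markers, mostly KRT7 (994.23 CPM in untreated HepG2 and 477.03 CPM in untreated Huh-7), was 1166.3, 640.6 to 664.2 and 454.3 to 478.8 CPM in HepG2, and 505.9 to 513.6, 270.4 to 283.0 and 172.1 to 183.5 CPM in Huh-7. The sum of 5 stromal and endothelial markers, mostly VIM, was 1085.8, 580.0 to 593.3 and 463.7 to 485.9 CPM in HepG2, and 746.2 to 760.4, 240 to 250 and 328.2 to 331.7 CPM in Huh-7. Blood markers summed to at most 1.7 CPM. The lines are named here as labelled, and the part of these marker differences in the results was not tested.

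Promoter windows of 250 bases before to 50 after each RefSeq start on GRCh38.p14 were available for 10 of the 10 genes (15 windows). 1 window is shown for each motif found; where 2 genes held the same motif, CHAC1 and ATF3, the gene with the larger line difference at 12 h is shown. The deposited values use hg19, so these coordinates serve the sequences only. Both strands were searched for TGATGNAA (the core of the C/EBP-ATF response element), TGACGTCA (the cAMP response element), TGANTCA (the AP-1 site) and the endoplasmic reticulum stress element ERSE, and no matches overlapped in these windows. Below are the 250 bases before the start, 5′ to 3′ on the gene's strand, with the matched letters in capitals. CHAC1 at chr15:40953221-40953470 on the plus strand holds the reverse complement of TGATGNAA 209 bases before the start, PPP1R15A at chr19:48872171-48872420 on the plus strand holds TGACGTCA 58 bases before it, and DDIT3 at chr12:57520515-57520764 on the minus strand holds a TGANTCA match 241 bases before it.
CHAC1: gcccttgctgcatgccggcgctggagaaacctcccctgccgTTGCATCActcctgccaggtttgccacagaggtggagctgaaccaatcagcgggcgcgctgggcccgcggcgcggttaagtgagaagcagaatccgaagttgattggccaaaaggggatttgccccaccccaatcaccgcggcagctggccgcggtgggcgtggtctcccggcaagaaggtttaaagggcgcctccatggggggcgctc
PPP1R15A: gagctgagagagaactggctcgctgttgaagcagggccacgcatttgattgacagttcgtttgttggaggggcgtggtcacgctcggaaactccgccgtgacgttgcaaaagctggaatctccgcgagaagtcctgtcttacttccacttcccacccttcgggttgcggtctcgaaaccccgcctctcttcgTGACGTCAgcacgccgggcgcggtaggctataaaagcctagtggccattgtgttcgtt
DDIT3: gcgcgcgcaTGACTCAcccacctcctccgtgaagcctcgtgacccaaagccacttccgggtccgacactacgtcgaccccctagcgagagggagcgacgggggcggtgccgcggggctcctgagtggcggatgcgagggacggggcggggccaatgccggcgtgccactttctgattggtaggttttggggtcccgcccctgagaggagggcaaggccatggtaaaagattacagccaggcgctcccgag

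TGATGNAA was in a window of 4.46% of 27305 genes and, of the 10 effectors, in those of CHAC1 and ATF3. TGACGTCA was in a window of 2.25% of genes and only in that of PPP1R15A among the 10, and TGANTCA was in a window of 9.37% of genes and only in that of DDIT3. ERSE was in a window of 0.0916% of genes and in none of the 10. A match describes these letters in this window and shows no binding.

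The effectors did not form 1 block. In Huh-7, 8 of the 10 were higher and none lower at 12 h by the call rule, with a median log2 change of 3.32 against -0.10 over all genes; 16.8% of all genes were called higher and 27.1% lower. In HepG2, 2 were higher and 5 lower at 12 h, with a median of -1.02 against -0.09 over all genes; 14.3% of all genes were called higher and 23.6% lower. At 24 h Huh-7 had 8 higher and 2 lower (17.9% and 26.9% of all genes), and HepG2 had 3 higher and 3 lower (14.1% and 22.3%). Opposite directions in the lines were found at 12 h for DDIT3, CHAC1, SESN2, STC2 and GDF15, which were lower in each treated HepG2 library than in the untreated one and higher in each treated Huh-7 library than in each untreated one. At 24 h that held for ATF4, DDIT3, CHAC1 and GDF15, with a difference of 0.12 on the log2 scale for ATF4 in HepG2. The share of all genes parted in opposite directions in this way was not counted. ATF3 and PPP1R15A were higher in both lines at both times, and DDIT4 was lower in both lines at both times, so the 10 genes as a group were not opposite between the lines.

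**Figure D1:**
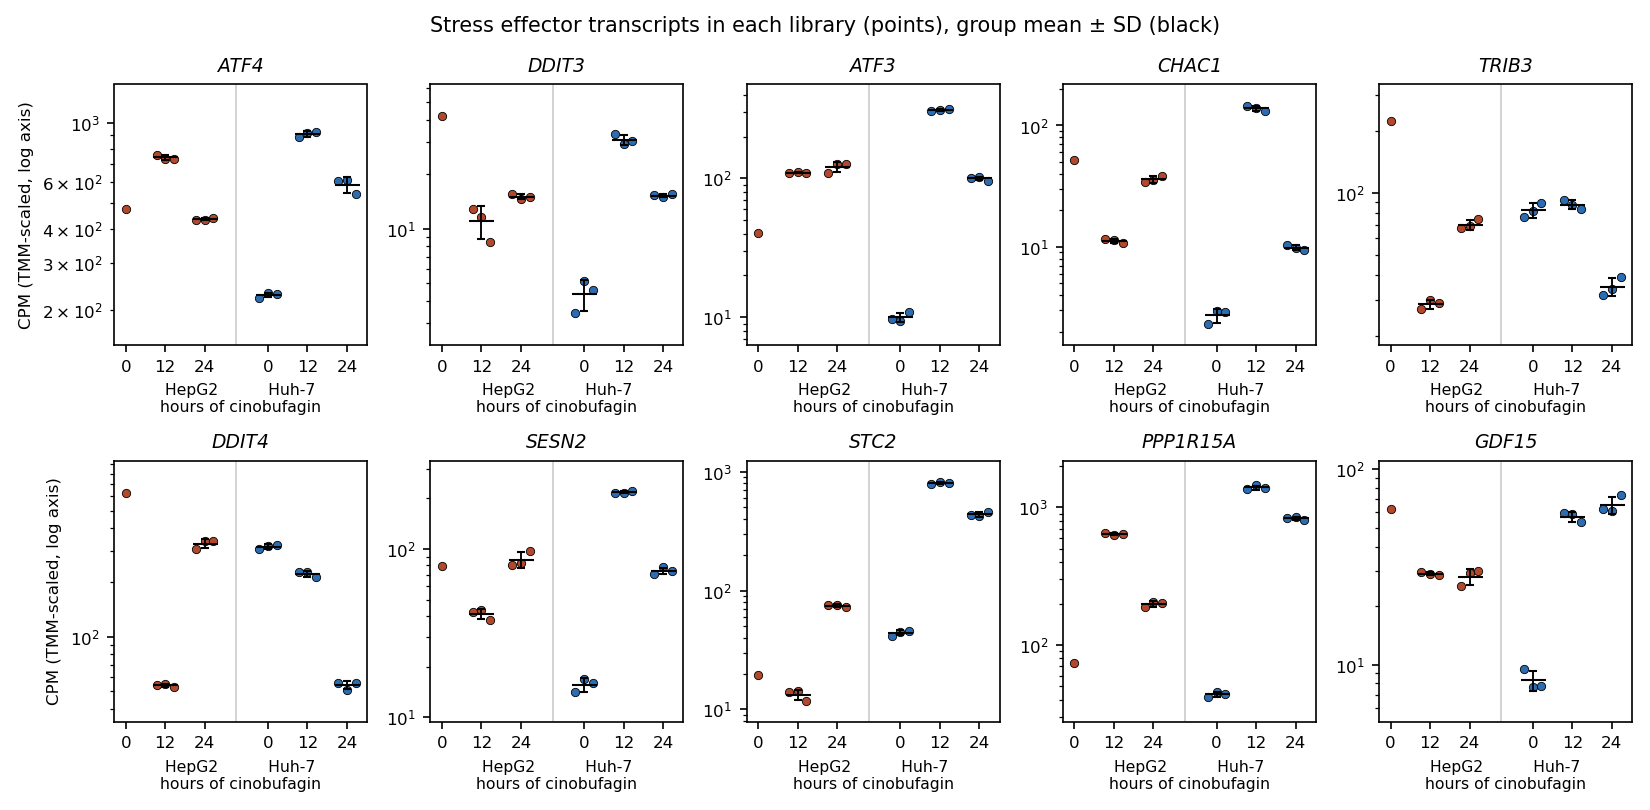
Level of each of the 10 effectors in every library, in TMM-scaled CPM on a log axis, by hours of cinobufagin (0, 12, 24) in HepG2 (red) and Huh-7 (blue), with black bars for the group mean and SD where a group has 3 libraries. At 12 h the HepG2 points of each gene lie below the Huh-7 points, while at 0 h the lone HepG2 point lies above the Huh-7 points for 9 genes and below for STC2. The share of all genes parted in these ways was not counted.

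ATF4, the transcription factor that directs the response, was higher at 12 h in both lines, by less in HepG2. In HepG2 it stood at 475 CPM untreated, at 759, 734 and 735 CPM at 12 h, and at 435, 433 and 442 CPM at 24 h. Huh-7 had 222, 232 and 229 CPM untreated, 883, 918 and 925 CPM at 12 h, and 605, 611 and 542 CPM at 24 h. The 12 h libraries were the highest in both lines, and at 24 h the HepG2 libraries were below the untreated one while the Huh-7 libraries were still above theirs. The log2 change at 12 h was 0.64 ± 0.054 (SE) in HepG2 and 2.00 ± 0.039 in Huh-7. At 24 h it was -0.12 ± 0.053 in HepG2, where the range over other processing settings was -0.40 to 0.08, and 1.36 ± 0.039 in Huh-7. In bulk RNA, fewer cells expressing a gene and less RNA per cell cannot be told apart, here and below.

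DDIT3 encodes CHOP, a C/EBP-family factor that ATF4 induces and that is known for its role in stress-induced cell death. Its HepG2 levels were 41.7 CPM untreated, 12.8, 11.6 and 8.46 CPM at 12 h, and 15.5, 14.6 and 14.9 CPM at 24 h. Its Huh-7 levels were 3.40, 5.10 and 4.56 CPM untreated, 33.3, 29.5 and 30.3 CPM at 12 h, and 15.3, 14.9 and 15.5 CPM at 24 h. All 6 treated HepG2 libraries were under the untreated one, all 6 treated Huh-7 libraries were over the untreated ones, and at 24 h the lines overlapped. In HepG2 DDIT3 was 3.80-fold lower at 12 h (log2 -1.93 ± 0.127), and in Huh-7 it was 7.12-fold higher (log2 2.83 ± 0.121). At 24 h the log2 changes were -1.47 ± 0.119 in HepG2 and 1.81 ± 0.138 in Huh-7. Untreated Huh-7 is where DDIT3 was scarcest, and the errors of its changes are wider than those of abundant members such as ATF4.

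ATF3, a stress-inducible repressor and activator of the same bZIP class, was higher in treated cells of both lines. HepG2 held 40.5 CPM untreated, 109, 112 and 109 CPM at 12 h, and 110, 127 and 126 CPM at 24 h. Huh-7 held 9.71, 9.43 and 10.9 CPM untreated, 304, 311 and 316 CPM at 12 h, and 101, 102 and 96.3 CPM at 24 h. Treated and untreated libraries did not overlap in either line, and the Huh-7 peak at 12 h was not seen in HepG2, whose 12 h and 24 h libraries overlapped. The 12 h change was 2.71-fold in HepG2 (log2 1.44 ± 0.084) and 30.9-fold in Huh-7 (log2 4.95 ± 0.065). The 24 h change was 2.99-fold in HepG2 (log2 1.58 ± 0.083) and 9.94-fold in Huh-7 (log2 3.31 ± 0.074).

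CHAC1, a gamma-glutamylcyclotransferase that breaks down glutathione and lies downstream of ATF4, had the largest difference between the lines in its 12 h change among the 10. In HepG2 it was at 51.5 CPM untreated, at 11.6, 11.3 and 10.7 CPM at 12 h, and at 33.9, 35.8 and 38.6 CPM at 24 h. In Huh-7 it was at 2.32, 2.97 and 2.90 CPM untreated, at 145, 138 and 132 CPM at 12 h, and at 10.3, 9.76 and 9.37 CPM at 24 h. The courses mirror each other, with a trough at 12 h in HepG2 and a peak at 12 h in Huh-7. At 12 h CHAC1 was 4.59-fold lower in HepG2 (log2 -2.20 ± 0.103) and 50.4-fold higher in Huh-7 (log2 5.66 ± 0.087). At 24 h the log2 changes were -0.51 ± 0.085 in HepG2, short of 2-fold, and 1.84 ± 0.147 in Huh-7. The difference of the 12 h changes, HepG2 minus Huh-7, was -7.85 ± 0.144 on the log2 scale.

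PPP1R15A (GADD34) is the regulatory subunit that brings protein phosphatase 1 to eIF2 and so closes the feedback loop. HepG2 had 74.1 CPM untreated, 652, 631 and 635 CPM at 12 h, and 188, 205 and 202 CPM at 24 h. Huh-7 had 41.6, 45.6 and 43.8 CPM untreated, 1355, 1445 and 1375 CPM at 12 h, and 835, 853 and 804 CPM at 24 h. Both lines were highest at 12 h, and no treated library overlapped an untreated one. The change at 12 h was 8.63-fold in HepG2 (log2 3.11 ± 0.068) and 31.9-fold in Huh-7 (log2 4.99 ± 0.046). At 24 h it was 2.68-fold in HepG2 (log2 1.42 ± 0.067) and 19.0-fold in Huh-7 (log2 4.25 ± 0.046).

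TRIB3, a pseudokinase that ATF4 and CHOP induce and that restrains them in turn, was lower in each treated HepG2 library than in the untreated one. Its expected counts were not whole numbers in 16 of 16 libraries, which RSEM, the authors' counting tool, gives where reads match more than 1 gene, so its values are less certain than those of the other 9 effectors, whose counts were whole throughout. HepG2 had 224 CPM untreated, 27.2, 30.0 and 29.1 CPM at 12 h, and 67.0, 68.9 and 74.3 CPM at 24 h. Huh-7 had 75.9, 81.4 and 89.2 CPM untreated, 91.8, 87.3 and 83.6 CPM at 12 h, and 31.8, 34.0 and 38.7 CPM at 24 h. At 12 h the Huh-7 libraries overlapped the untreated ones, whereas the HepG2 libraries were far under theirs. TRIB3 was 7.79-fold lower in HepG2 at 12 h (log2 -2.96 ± 0.079), and its Huh-7 change was 0.09 ± 0.059 (-0.32 to 0.38 over other settings). At 24 h it was lower in both, with log2 changes of -1.68 ± 0.070 in HepG2 and -1.24 ± 0.068 in Huh-7.

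DDIT4 (REDD1), which restrains mTORC1 through the TSC complex, was lower in treated cells throughout. HepG2 stood at 626 CPM untreated, at 53.9, 54.9 and 53.2 CPM at 12 h, and at 306, 337 and 339 CPM at 24 h. Huh-7 stood at 306, 318 and 323 CPM untreated, at 228, 228 and 214 CPM at 12 h, and at 55.4, 51.0 and 55.8 CPM at 24 h. The lowest point came at 12 h in HepG2 and at 24 h in Huh-7, at overlapping levels. At 12 h DDIT4 was 11.6-fold lower in HepG2 (log2 -3.53 ± 0.058) and 1.41-fold lower in Huh-7 (log2 -0.50 ± 0.041). At 24 h it was 1.91-fold lower in HepG2 (log2 -0.94 ± 0.052) and 5.83-fold lower in Huh-7 (log2 -2.54 ± 0.049).

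SESN2, a sestrin that senses leucine and also restrains mTORC1, was higher in treated Huh-7, where DDIT4 was lower. HepG2 had 79.0 CPM untreated, 42.2, 43.6 and 37.8 CPM at 12 h, and 80.1, 82.0 and 96.8 CPM at 24 h. Huh-7 had 14.1, 16.8 and 16 CPM untreated, 216, 216 and 222 CPM at 12 h, and 70.9, 77.6 and 73.6 CPM at 24 h. In HepG2 the 12 h libraries were all below the untreated one and the 24 h libraries all above it, and in Huh-7 each treated library was above each untreated one. The 12 h log2 changes were -0.94 ± 0.090 in HepG2, just short of 2-fold, and 3.80 ± 0.069, or 13.9-fold, in Huh-7. The 24 h log2 changes were 0.13 ± 0.083 in HepG2 (-0.14 to 0.33 over other settings) and 2.24 ± 0.079 in Huh-7.

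STC2, stanniocalcin 2, a secreted glycoprotein and ATF4 target, had the widest gap between the lines at 12 h. HepG2 held 19.6 CPM untreated, 14, 14.2 and 11.8 CPM at 12 h, and 75.7, 76.0 and 72.1 CPM at 24 h. Huh-7 held 41.8, 45 and 45.9 CPM untreated, 793, 821 and 803 CPM at 12 h, and 429, 424 and 461 CPM at 24 h. HepG2 libraries were below Huh-7 libraries at each time, and HepG2 reached its highest level at 24 h, Huh-7 at 12 h. The log2 change at 12 h was -0.56 ± 0.126 in HepG2 and 4.19 ± 0.046 in Huh-7. By 24 h STC2 was above untreated in both lines, 3.80-fold in HepG2 (log2 1.93 ± 0.096) and 9.90-fold in Huh-7 (log2 3.31 ± 0.047).

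GDF15, a stress cytokine that acts on the hindbrain receptor GFRAL, moved in opposite directions in the lines at both times. HepG2 had 62.6 CPM untreated, 29.7, 28.9 and 28.7 CPM at 12 h, and 25.2, 29.5 and 30.0 CPM at 24 h. Huh-7 had 9.46, 7.65 and 7.79 CPM untreated, 59.3, 58.6 and 53.4 CPM at 12 h, and 62.1, 61.2 and 73.3 CPM at 24 h. Treated HepG2 libraries were all under the untreated one and treated Huh-7 libraries were all above theirs. GDF15 was 2.15-fold lower in HepG2 at 12 h (log2 -1.10 ± 0.10) and 6.87-fold higher in Huh-7 (log2 2.78 ± 0.095). At 24 h the log2 changes were -1.15 ± 0.099 in HepG2 and 2.98 ± 0.092 in Huh-7. After division by the library median the HepG2 values were -0.81 at 12 h and -0.94 at 24 h, short of 2-fold.

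**Figure D2:**
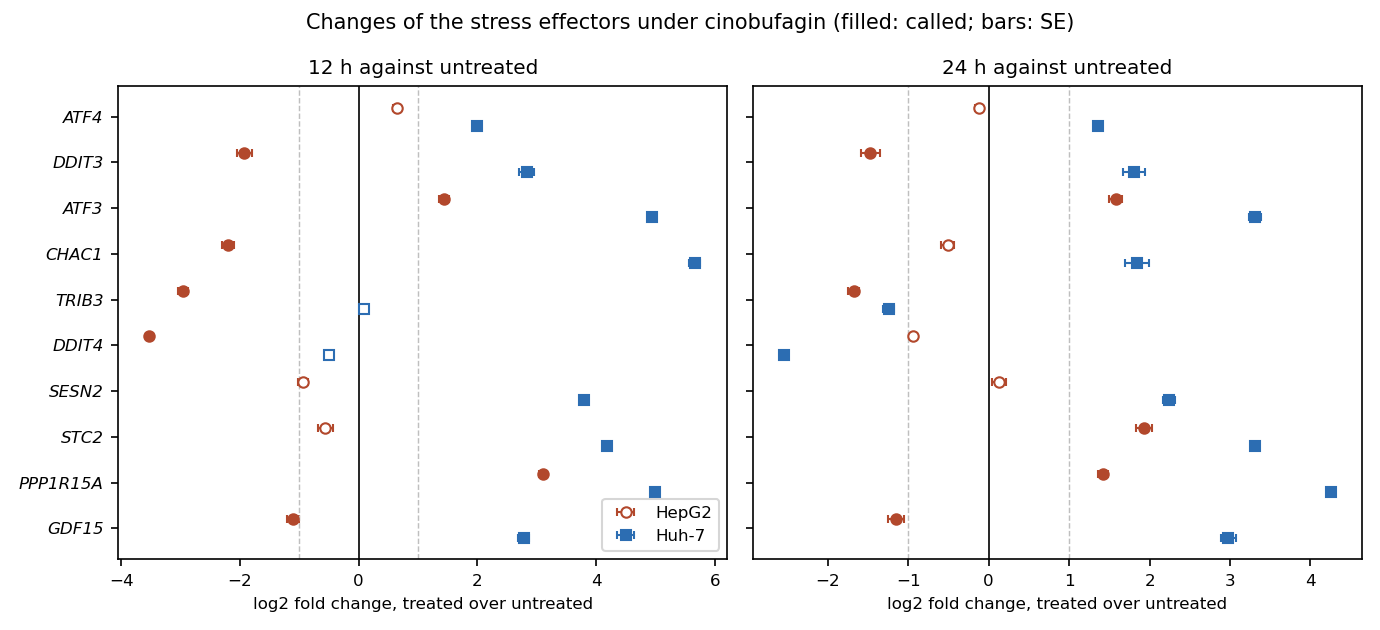
Log2 fold change, treated over untreated, of each effector at 12 h (left) and 24 h (right), HepG2 as circles and Huh-7 as squares; bars are SE, filled symbols were called and dashed lines mark 2-fold. At 12 h CHAC1 lies at -2.20 in HepG2 and at 5.66 in Huh-7, while PPP1R15A lies right of 0 in both.

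The difference of the changes, HepG2 minus Huh-7, was below 0 for all 10 effectors at 12 h and reached the call in 10, where 8.35% of all genes were called lower and 9.40% higher. It ran from -7.85 for CHAC1 to -1.35 ± 0.064 for ATF4, with a median of -3.70 against 0.02 over all genes. At 24 h 8 were called lower and DDIT4 higher (10.9% and 13.1% of all genes), and the largest differences were -4.13 ± 0.138 for GDF15 and -3.28 ± 0.182 for DDIT3. DDIT4 alone had the sign turned, at 1.61 ± 0.075. These contrasts were in view when the genes were picked and carry no test here.

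Levels in the lines were also compared directly, as a description. In untreated cells the HepG2 library was above every Huh-7 library for 9 effectors and below for STC2. The share of all genes without overlap was not counted. By the call rule 7 were higher and 1 lower (13.8% and 13.1% of all genes). CHAC1 was 18.8-fold higher in untreated HepG2 (log2 4.23 ± 0.125), DDIT3 9.56-fold (log2 3.26 ± 0.141), GDF15 7.53-fold (log2 2.91 ± 0.115) and SESN2 5.05-fold (log2 2.34 ± 0.099). STC2 was 2.25-fold lower (log2 -1.17 ± 0.101). The ATF4 difference of 1.06 lost its call under 3 other scalings (0.93 to 0.99) and with limma on FPKM plus 1. The changes against untreated cells share these libraries with the untreated difference, so the values are set side by side and not correlated.

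At 12 h, a comparison that leaves out the lone untreated library, every HepG2 library was below every Huh-7 library for all 10 effectors. How many of all genes were parted in this way was not counted, and a gap of 1.22-fold, that of ATF4, was enough to part the libraries. Of the 10, 8 were called lower and none higher (15.9% and 18.0% of all genes). The gap was 60.4-fold for STC2 (log2 -5.92 ± 0.058), 12.3-fold for CHAC1 (log2 -3.62 ± 0.072) and 5.29-fold for SESN2 (log2 -2.40 ± 0.062), and only 1.22-fold for ATF4 (log2 -0.29 ± 0.036). GDF15, at -0.97, reached 2-fold under 3 other scalings (-1.01 to -1.04). At 24 h the order was mixed: CHAC1, DDIT4 and TRIB3 were called higher in HepG2, by 3.67-fold, 6.05-fold and 2.01-fold, and STC2, PPP1R15A and GDF15 lower, by 5.87-fold, 4.19-fold and 2.32-fold (19.9% and 16.7% of all genes were called higher and lower). TRIB3 sat at the threshold there (log2 1.01 ± 0.071, 0.92 to 1.09 over other settings). ATF4, at 437 ± 4.72 CPM in HepG2 and 586 ± 38.5 CPM in Huh-7 (SD, n = 3 each), differed by -0.42 ± 0.038 on the log2 scale, and DDIT3 by -0.02 ± 0.110 with a sign that changed with the setting.

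The 24 h and 12 h libraries, 3 of each in both lines, were also set against each other. In each line this contrast is the 24 h change minus the 12 h change, both in view when the genes were picked, so no p-value is given. In HepG2, 5 of 10 were called higher at 24 h and 1 lower (6.54% and 5.31% of all genes were called higher and lower), with a median log2 change of 0.76 against -0.01 over all genes. DDIT4 was 6.06-fold higher (log2 2.60 ± 0.050), STC2 5.59-fold (log2 2.48 ± 0.074), CHAC1 3.22-fold (log2 1.69 ± 0.087), TRIB3 2.44-fold and SESN2 2.09-fold (log2 1.07 ± 0.068). Without the third 24 h library the SESN2 value was 0.98, short of 2-fold. PPP1R15A was 3.22-fold lower (log2 -1.69 ± 0.039). ATF4 differed by -0.77 ± 0.037, DDIT3 by 0.45 ± 0.120 and ATF3 by 0.14 ± 0.050 on the log2 scale, each short of 2-fold. GDF15 differed by -0.04 ± 0.087, and its sign changed with the setting.

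In Huh-7, 6 of the 10 were called lower at 24 h than at 12 h and none higher (6.54% and 6.51% of all genes were called lower and higher), with a median log2 change of -1.18 against -0.01 over all genes. CHAC1 was 14.1-fold lower (log2 -3.81 ± 0.072), DDIT4 4.13-fold (log2 -2.05 ± 0.051), ATF3 3.11-fold, SESN2 2.94-fold and TRIB3 2.51-fold. DDIT3 was 2.04-fold lower (log2 -1.03 ± 0.099), close to the threshold: without the first 12 h library the value was -0.98. STC2, PPP1R15A and ATF4 had log2 differences of -0.88 ± 0.037, -0.74 ± 0.035 and -0.63 ± 0.037, and GDF15 had 0.20 ± 0.068. All 24 h libraries were below all 12 h libraries for 9 effectors and above them for GDF15, a separation not counted over all genes.

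The line difference of the change from 12 to 24 h, HepG2 minus Huh-7, is the 24 h line difference minus the 12 h one and is likewise a description. It was called higher for 7 effectors and lower for none (6.92% and 5.24% of all genes). It was 5.50 ± 0.114 on the log2 scale for CHAC1, 4.65 ± 0.071 for DDIT4 and 3.36 ± 0.082 for STC2. SESN2, TRIB3, ATF3 and DDIT3 had 2.62 ± 0.087, 2.61 ± 0.102, 1.78 ± 0.068 and 1.48 ± 0.156. PPP1R15A had -0.94 ± 0.052, GDF15 -0.24 ± 0.111 and ATF4 -0.13 ± 0.052, none of them at 2-fold.

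**Figure D3:**
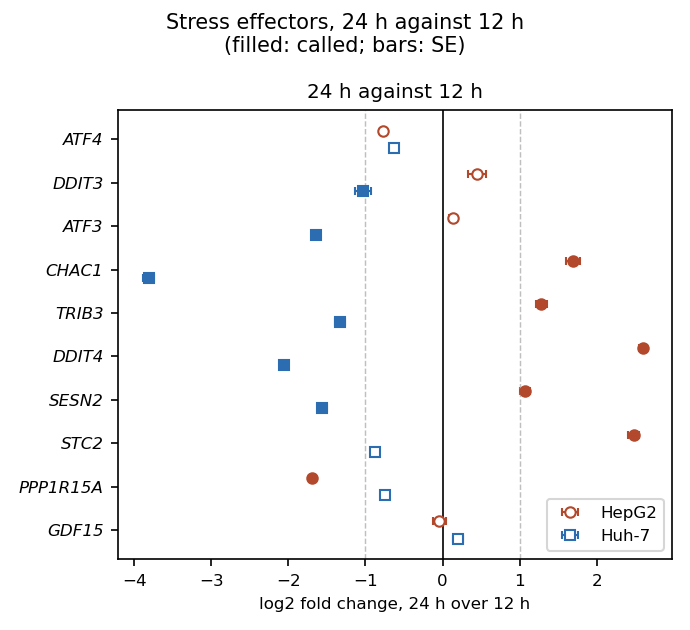
Log2 fold change of each effector at 24 h over 12 h, HepG2 as circles and Huh-7 as squares; bars are SE, filled symbols were called and dashed lines mark 2-fold. CHAC1, TRIB3, DDIT4 and SESN2 are called to the right in HepG2 and to the left in Huh-7.

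Per length, ATF4 and DDIT4 led the group before treatment in both lines, at 388 and 421 FPKM in HepG2 and at 194 ± 2.63 and 222 ± 4.91 FPKM in Huh-7. At 12 h ATF4 was first and PPP1R15A next in both, with ATF4 at 460 ± 9.68 and PPP1R15A at 237 ± 4.33 FPKM in HepG2, and ATF4 at 584 ± 13.2 and PPP1R15A at 534 ± 15.4 FPKM in Huh-7 (SD, n = 3 each). Last came STC2 in HepG2, at 2.19 ± 0.220 FPKM, and DDIT3 in Huh-7, at 29.4 ± 1.89 FPKM. STC2 was instead the third of the 10 in Huh-7, at 137 ± 1.74 FPKM, and did not differ from ATF3, at 134 ± 2.93 FPKM, beyond the spread of the libraries. Other neighbours whose libraries overlapped in FPKM were SESN2, TRIB3 and DDIT3 in HepG2 at 12 h (10.3, 10.1 and 9.76 FPKM) and TRIB3 and DDIT3 in Huh-7 at 12 h (32.5 and 29.4 FPKM). At 24 h ATF4 still led, at 295 ± 1.70 FPKM in HepG2 and 393 ± 23.1 FPKM in Huh-7, followed by DDIT4 in HepG2 (183 ± 9.19 FPKM) and by PPP1R15A in Huh-7 (333 ± 7.49 FPKM).

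The 10 transcripts together made up 1694 CPM in untreated HepG2, 1659 to 1711 CPM at 12 h and 1335 to 1436 CPM at 24 h. In Huh-7 they summed to 726 to 772 CPM untreated, 4109 to 4253 CPM at 12 h and 2170 to 2239 CPM at 24 h. The untreated and 12 h sums were close in HepG2 but their makeup was not: PPP1R15A was 4.37% of the sum untreated, 38.0% at 12 h and 14.2% at 24 h. In Huh-7 it was 5.79%, 33.4% and 37.6%.

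Wider pathway lists, also drawn up with results known, were read against the shares of all genes, which against untreated cells were 14.3% higher and 23.6% lower in HepG2 and 16.8% higher and 27.1% lower in Huh-7 at 12 h. Of 41 other ATF4 and CHOP targets, among them genes of amino acid synthesis, transport and tRNA charging, 40 were tested (FGF21 was not). In HepG2 at 12 h, 7 rose (17.5%, near the share of all genes) and 13 fell (32.5%). In Huh-7 at 12 h, 16 rose (40.0%) and 3 fell (7.5%). At 24 h 8 rose (20% against 14.1% of all genes) and 10 fell (25.0% against 22.3%) in HepG2, and 14 rose (35.0% against 17.9%) and 3 fell (7.5% against 26.9%) in Huh-7. Under 4 other scalings the 12 h counts were 5 to 10 up and 9 to 19 down in HepG2, and 13 to 18 up and 2 to 6 down in Huh-7. The difference of the 12 h changes was called lower in HepG2 for 20 of 40 (50.0%; 19 or 20 under other scalings) and higher for 1, with a median of -0.97 against 0.02 over all genes. Untreated HepG2 was called above untreated Huh-7 for 21 of the 40 (52.5% against 13.8% of all genes) and below for 2 (5.00% against 13.1%). This comparison and the difference of the 12 h changes share the lone untreated HepG2 library. Between the lines at 12 h, which leaves that library out, HepG2 was called higher for 7 of the 40 (17.5% against 18.0% of all genes). For 8 it was called lower (20% against 15.9%), and the median log2 difference of the 40 was 0.06. The line difference of the change from 12 to 24 h, HepG2 minus Huh-7, was called higher for 13 (32.5% against 6.92%). It was called lower for 4 (10.0% against 5.24%). Within HepG2, 7 of the 40 were called higher at 24 h than at 12 h and 1 lower, and within Huh-7 3 were higher and 5 lower.

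**Figure D4:**
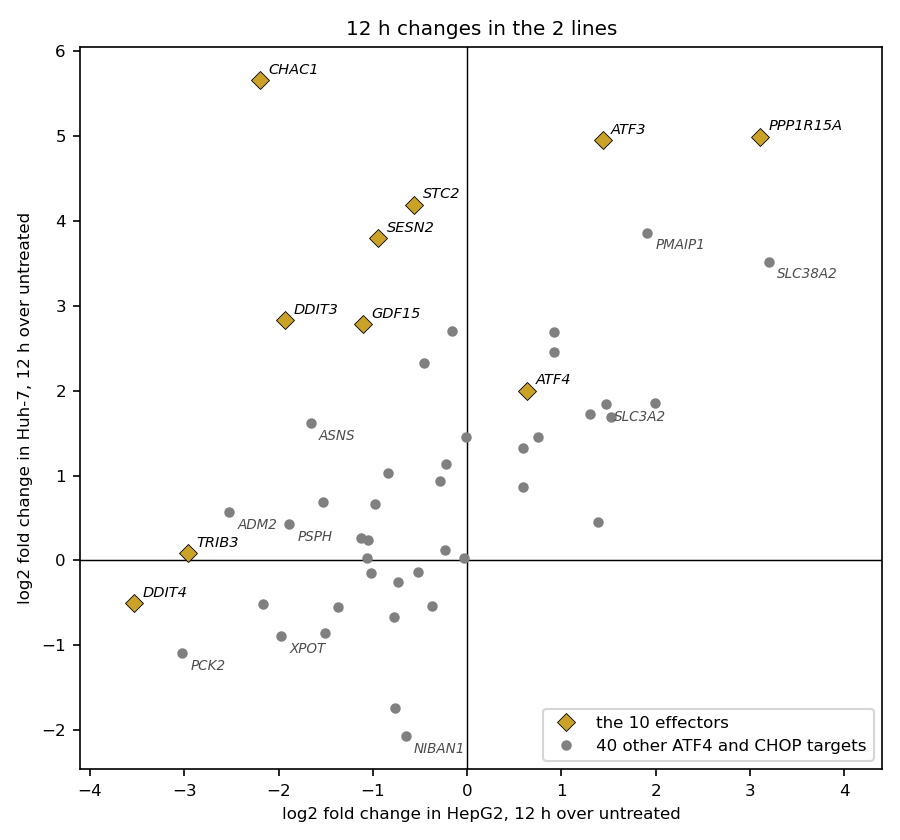
Log2 fold change at 12 h over untreated in HepG2 (horizontal) and in Huh-7 (vertical) for the 10 effectors (diamonds) and 40 other ATF4 and CHOP targets (dots), a few of them labelled by name. CHAC1, STC2, SESN2, DDIT3 and GDF15 lie in the upper left, lower in HepG2 and higher in Huh-7, and SLC38A2 and PMAIP1 lie with PPP1R15A and ATF3 in the upper right.

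Within that list the system A amino acid transporter SLC38A2 rose in both lines at 12 h, to 3582 CPM in HepG2 against 390 CPM untreated (log2 3.20 ± 0.063, edgeR adjusted p = 4.64e-29) and to 3137 CPM in Huh-7 against 273 CPM untreated (log2 3.52 ± 0.041, adjusted p = 2.83e-36). PMAIP1 (NOXA), a BH3-only death gene, also rose in both at 12 h, to 68.4 CPM in HepG2 against 18.2 CPM untreated (log2 1.91 ± 0.091, adjusted p = 7.78e-19) and to 122 CPM in Huh-7 against 8.39 CPM untreated (log2 3.86 ± 0.065, adjusted p = 9.36e-32). The mitochondrial phosphoenolpyruvate carboxykinase PCK2 fell in both at 12 h, in HepG2 to 17.4 CPM against 141 CPM untreated (log2 -3.02 ± 0.097, adjusted p = 2.37e-23) and in Huh-7 to 10.8 CPM against 23.0 CPM (log2 -1.09 ± 0.112, adjusted p = 1.24e-10). The peptide hormone ADM2 fell in HepG2 to 9.09 CPM against 52.2 CPM (log2 -2.52 ± 0.120, adjusted p = 6.33e-19), where Huh-7 had 10.2 CPM against 6.85 CPM (log2 0.57 ± 0.132, short of 2-fold). Asparagine synthetase, ASNS, had the largest difference of the 12 h changes in the list, -3.28 ± 0.087 (adjusted p = 1.27e-24). Its means were 156 CPM untreated, 49.2 CPM at 12 h and 131 CPM at 24 h in HepG2, and 32.9, 101 and 76.7 CPM in Huh-7. NIBAN1 was the 1 target whose difference was called higher, 1.42 ± 0.220 (adjusted p = 1.70e-06). At 12 h HepG2 had 4.95 CPM against 7.78 CPM untreated, short of 2-fold, and in Huh-7 it fell to 16.1 CPM against 67.8 CPM.

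Upstream of ATF4, a list of 17 genes held eIF2 kinases, eIF2 and eIF2B, and also EIF2A, DELE1, OMA1, GCN1 and IMPACT. Of the 17, 2 rose (11.8%) and 5 fell (29.4%) at 12 h in HepG2, near the shares of all genes. In Huh-7 1 rose (5.88%) and 6 fell (35.3%). PERK, the endoplasmic reticulum kinase encoded by EIF2AK3, rose in Huh-7 at 12 h to 42.3 CPM against 16 CPM (log2 1.41 ± 0.078, edgeR adjusted p = 1.68e-17), where its HepG2 change was 0.78 ± 0.104. The haem-regulated kinase EIF2AK1 fell in Huh-7 to 63.4 CPM against 221 CPM (log2 -1.80 ± 0.044, adjusted p = 1.98e-27), where its HepG2 change was -0.89 ± 0.050. EIF2S1, the alpha subunit that is phosphorylated, rose in HepG2 at 12 h (log2 1.36 ± 0.073, adjusted p = 1.57e-17) and had 0.93 ± 0.053 in Huh-7. The rises of EIF2AK3 and EIF2S1 each fell short of the call under 1 of 4 other scalings. The 1 of the 17 whose 12 h change was called different between the lines (5.88%, all genes 9.40% higher and 8.35% lower) was the mitochondrial stress protease OMA1. It fell in both, to 6.55 CPM against 22.6 CPM in HepG2 and to 0.303 ± 0.285 CPM (SD, n = 3) against 10.8 CPM in Huh-7. That Huh-7 level lies near what 3 counts give (0.287 to 0.314 CPM of the plain library total), so the size of the difference is not given.

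A list of 6 genes around the eIF2 phosphatase held PPP1R15B, PPP1CA, PPP1CB and PPP1CC, and also DNAJC3 and NCK1. PPP1R15B, the constitutively made paralogue of PPP1R15A, rose in both lines at 12 h. It reached 1543 CPM against 240 CPM in HepG2 (log2 2.69 ± 0.050, edgeR adjusted p = 1.14e-29). In Huh-7 it reached 585 CPM against 93.3 CPM (log2 2.65 ± 0.035, edgeR adjusted p = 1.27e-34). The difference of these changes was 0.04 ± 0.057 (adjusted p = 0.589), where PPP1R15A had -1.88 ± 0.083. None of the 6 was called in that difference, where 9.40% of all genes were called higher and 8.35% lower. DNAJC3, an inhibitor of eIF2 kinases, rose in Huh-7 at 12 h (log2 1.46 ± 0.052, adjusted p = 8.93e-23) and had 0.81 ± 0.090 in HepG2.

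A list of bZIP partners and relatives, with 20 genes tested, also held CEBPZ, which is not a bZIP factor. Of the 20, 5 rose (25.0%) and 1 fell (5.00%) in HepG2 at 12 h, and 7 rose (35.0%) and 2 fell (10.0%) in Huh-7. CEBPZ was among the Huh-7 rises (log2 1.29 ± 0.059). ATF5, a relative of ATF4, rose in both, to 136 CPM against 38.1 CPM in HepG2 (log2 1.84 ± 0.088, edgeR adjusted p = 9.18e-19) and to 56.3 CPM against 15.6 CPM in Huh-7 (log2 1.85 ± 0.079, adjusted p = 1.24e-20). The repressor NFIL3 also rose in both, by 1.69 ± 0.097 in HepG2 (adjusted p = 1.11e-16) and 1.87 ± 0.078 in Huh-7 (adjusted p = 5.28e-21). CEBPA, the liver-enriched C/EBP, fell in Huh-7 at 12 h to 7.19 CPM against 43.0 CPM (log2 -2.58 ± 0.109, edgeR adjusted p = 1.02e-20). In HepG2 it was at 0.632 ± 0.419 CPM (SD, n = 3) against 4.06 CPM (log2 -2.66 ± 0.389). That 12 h level is only a few counts per library, so the size of the HepG2 fall is uncertain. In the difference of the 12 h changes CEBPG was called lower and CREB3L1 higher, both named after their values were seen. CREB3L1 was at 0.259 CPM in untreated HepG2 and 0.223 CPM at 12 h, about 3 counts or fewer.

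Of 23 endoplasmic reticulum stress sensors and chaperones, 2 rose (8.70%) and none fell in HepG2 at 12 h, and 7 rose (30.4%) and 2 fell (8.70%) in Huh-7. DNAJB9, a co-chaperone of BiP, rose in both, by 1.33 ± 0.121 in HepG2 (edgeR adjusted p = 9.36e-12) and 2.26 ± 0.094 in Huh-7 (adjusted p = 5.26e-21). HERPUD1, a degradation component that the ATF4 target list also holds, rose in Huh-7 to 329 CPM against 51.1 CPM (log2 2.69 ± 0.041, adjusted p = 6.42e-33), had 0.92 ± 0.052 in HepG2, and was the 1 gene of the 23 whose 12 h change was called lower in HepG2, by -1.77 ± 0.066 (adjusted p = 7.94e-21). PDIA4, a disulfide isomerase, fell in Huh-7 at 12 h (log2 -1.27 ± 0.048, adjusted p = 3.27e-22) and had -0.52 ± 0.064 in HepG2. Scaling weighed on this list in HepG2, where 1 to 9 of the 23 were called higher at 12 h under 4 other scalings; the HepG2 rise of DNAJB9 and the Huh-7 fall of PDIA4 each missed the call under 1 of them.

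Downstream of DDIT4 and SESN2, 25 genes of mTORC1 control had 5 rises (20%) and 10 falls (40.0%) in HepG2 at 12 h and 3 rises (12.0%) and 8 falls (32.0%) in Huh-7. Under 4 other scalings the counts were 1 to 6 rises and 6 to 13 falls in HepG2, and 1 to 5 rises and 7 to 12 falls in Huh-7. The Rag GTPase RRAGC rose in both, to 99.6 CPM against 22.1 CPM in HepG2 (log2 2.17 ± 0.091, edgeR adjusted p = 2.52e-20) and to 66.0 CPM against 20.7 CPM in Huh-7 (log2 1.67 ± 0.065, adjusted p = 1.01e-21). WDR59, a part of the GATOR2 complex on which sestrins act, fell in both, by -1.75 ± 0.102 in HepG2 (adjusted p = 1.27e-16) and -2.33 ± 0.079 in Huh-7 (adjusted p = 2.23e-23). The difference of the 12 h changes was called higher for EIF4EBP2 and RPTOR and lower for EIF4EBP1, named after their values were seen. Of 5 tested relatives of TRIB3, SESN2, STC2, CHAC1 and DDIT4, only TRIB1 rose, in both lines, by 2.03 ± 0.099 in HepG2 (adjusted p = 1.18e-18) and 2.61 ± 0.055 in Huh-7 (adjusted p = 4.12e-29); 1 fell in HepG2 and 2 in Huh-7.

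DDIT4, SESN2 and GDF15 are also known p53 targets. Of 17 other p53 targets, 3 rose (17.6%, near the share of all genes) and 6 fell (35.3%) in HepG2 at 12 h, and 5 rose (29.4%) and 7 fell (41.2%) in Huh-7. CDKN1A, the p21 inhibitor of cyclin-dependent kinases, rose in both at 12 h, to 209 CPM against 69.7 CPM in HepG2 (log2 1.59 ± 0.066, edgeR adjusted p = 1.75e-20) and to 191 CPM against 15.5 CPM in Huh-7 (log2 3.62 ± 0.057, adjusted p = 1.10e-32). The nuclease AEN rose in both as well, to 154 CPM against 35.5 CPM in HepG2 (log2 2.11 ± 0.082, adjusted p = 2.88e-21) and to 216 CPM against 23.8 CPM in Huh-7 (log2 3.18 ± 0.056, adjusted p = 2.52e-31). XPC, a nucleotide excision repair factor, fell in both, by -2.79 ± 0.103 in HepG2 (adjusted p = 7.62e-22) and -3.42 ± 0.104 in Huh-7 (adjusted p = 9.54e-25). The difference of the 12 h changes was called lower for 3 of the 17 (17.6%), CDKN1A, AEN and PLK3, and higher for FAS (5.88%); PLK3 and FAS are named after their values were seen.

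**Figure D5:**
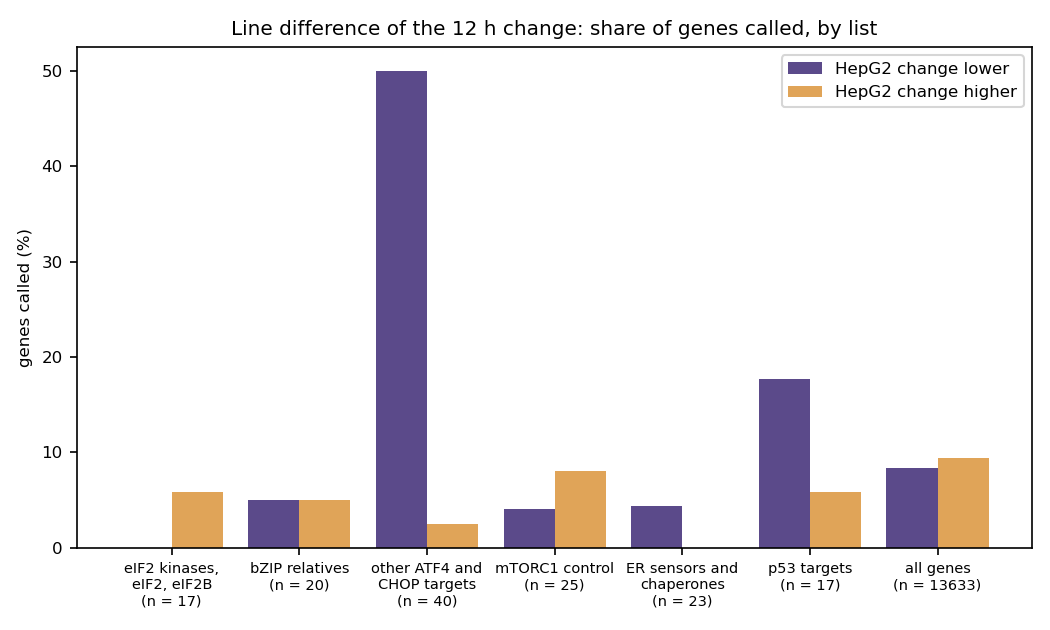
Share of tested genes of each list whose 12 h change was called lower (purple) or higher (orange) in HepG2 than in Huh-7, in percent, with all genes at the right. The other ATF4 and CHOP targets have 50.0% lower, against 8.35% of all genes.

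The genes outside the 10 whose 6 group means ran most like those of each effector were found by the root mean square distance of log2 CPM, centred on the mean of the groups, over 9026 genes with at least 10 CPM on average. For ATF4 these were KLF10 and TES, at distances of 0.12 and 0.14. For DDIT3 they were ASNS and DNAJA4 (0.49 and 0.52), for ATF3 PLK2 and PMAIP1 (0.40 and 0.47), and for TRIB3 ZFYVE9 and PSPH (0.30 and 0.39). PPP1R15A lay nearest EPHA2 and CRY1 (0.33 and 0.40), GDF15 nearest H2AC6 and NRIP1 (0.36 and 0.42), and SESN2 nearest SHB and ERRFI1 (0.41 and 0.55). DDIT4 lay nearest XPOT and TSHZ1 (0.57 and 0.59) and STC2 nearest FOXD1 and DUSP5 (0.74 and 0.76). CHAC1 lay farthest from its nearest genes outside the 10, SNAI2 and LURAP1L (0.97 and 1.10). Among the 10 themselves, DDIT3 and GDF15 were nearest to each other (0.49), as were TRIB3 and DDIT4 (0.55), CHAC1 was nearest to SESN2 (0.83), and STC2 stood farthest from any other, 1.73 from SESN2.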

How the data were processed

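Polyadenylated RNA of 16 libraries was captured on oligo-dT beads and sequenced on an Illumina HiSeq instrument, per the labels' protocols. The authors deposited, per library, an expected count and an FPKM value for each gene with a value above 0, with the gene's effective length, per the file headers; an unlisted gene was entered as 0. HISAT, Bowtie2, RSEM and the hg19 build are named in the submitters' processing notes, with versions, settings and strand counting not given in the sources used here. RSEM divides reads that match several genes, so 31.1% to 32.3% of the deposited expected counts of a library were not whole; they were rounded. Gene names came from a RefSeq table on GRCh38.p14, used for names and promoter sequences; 16665 of 16697 identifiers were named.

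Counts were tested with edgeR 4.0.16 (R 4.3.3, limma 3.58.1, DESeq2 1.42.0 as an alternative) after filterByExpr, which removed 3064 genes holding 0.023% of counts, with TMM scaling (factors 0.889 to 1.24) and 1 coefficient per group over all 16 libraries (10 residual degrees of freedom, biological coefficient of variation 0.0318). Errors of log2 changes are the change divided by the square root of the F statistic. Alternatives were 4 other scalings, no filter, DESeq2, limma on the deposited FPKM, the replicate number as a block, each line alone, and each library left out. A count of 0 allows up to 3 counts, 0.287 to 0.314 CPM of the plain library total, which covers counting error only.

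The effectors, the pathway lists and the tests were chosen with earlier results of these data known. Named pathway genes are among the 2 highest and 2 lowest called genes of a list with a mean of at least 10 CPM in each line and time against untreated, or among the 2 genes nearest in pattern to an effector. Exceptions are genes that only describe a list and those said to be named after their values were seen. No pair of libraries within a group agreed within sampling noise, and none was merged.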

Additional observations from a re-analysis of the deposited data

Results flagged for a closer look

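Effects of opposite direction in the lines, in which each treated library of a line lay on 1 side of its untreated libraries, were seen at 12 h with a difference of the log2 changes, HepG2 minus Huh-7, of -4.76 for DDIT3, -7.85 for CHAC1, -4.74 for SESN2, -4.74 for STC2 and -3.88 for GDF15. At 24 h the same was seen with -1.49 for ATF4, -3.28 for DDIT3, -2.35 for CHAC1 and -4.13 for GDF15. The share of all genes with such opposite effects was not counted. The HepG2 part of the ATF4 value was only -0.12, and -0.40 to 0.08 over other settings. These differences were not tested, because the genes were picked with them in view, and each rests on the lone untreated HepG2 library.

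Between 12 and 24 h, a contrast of treated libraries alone, 6 effectors had every 24 h HepG2 library above every 12 h HepG2 library and every 24 h Huh-7 library below every 12 h Huh-7 library. The share of all genes with this pattern was not counted. The difference of the log2 changes, HepG2 minus Huh-7, was 1.48 for DDIT3, 5.50 for CHAC1, 2.61 for TRIB3, 4.65 for DDIT4, 2.62 for SESN2 and 3.36 for STC2. These were not tested either, since they follow by subtraction from the differences at 12 and 24 h that were in view when the genes were picked.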

How the results depend on the processing

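The count of effectors called differed from the main one by at most 1 gene in any comparison under any alternative. Scaling moved the split of all calls against untreated cells. Of the genes called in HepG2 at 12 h 37.7% were higher under TMM, 19.3% under plain library size, 29.0% under upper quartiles and 53.6% after division by the library median, which shift the median of all genes to -0.49, -0.27 and 0.16 against -0.09; at 24 h the shares were 38.7%, 24.2%, 30.9% and 50.3%. In Huh-7 they were 38.3%, 21.3%, 26.8% and 52.2% at 12 h, with medians of -0.51, -0.37 and 0.18 against -0.10, and 40.0%, 24.3%, 27.1% and 50.3% at 24 h. For 24 h against 12 h in HepG2, 55.2% of calls were higher under TMM and 67.3% under plain library size, and for the line difference of the 24 h changes 54.6% under TMM and 65.4% under upper quartiles.

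Limma on log2(FPKM + 1) called 611 genes in HepG2 between 12 and 24 h (main 1615), 732 in Huh-7 (1780) and 828 in the difference of these changes (1659). Between the lines it called 2369 untreated (3657), 2772 at 12 h (4620) and 3161 at 24 h (4986). GDF15 in HepG2 at 24 h against 12 h (-0.04) turned to 0.09 with plain library size, 0.03 without the first 24 h library and 0.08 with limma on FPKM plus 1 or 0.1. DDIT3 between the lines at 24 h (-0.02) turned to 0.06 with limma on FPKM. The cause was not tested.

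Replicate numbers did not pair libraries: over 30 same-numbered pairs the correlation of deviations was -0.138 to 0.155, over 0.1 in 2. With the replicate number as a block 1610 genes were called in HepG2 and 1762 in Huh-7 between 12 and 24 h, and DDIT4 between untreated lines reached 1.02 (0.99 without the block). Without the untreated HepG2 library no HepG2 change against untreated cells has a value. Between 26 settings TRIB3 in Huh-7 at 12 h had the opposite sign in 4. At these depths DDIT3 and CHAC1 in untreated Huh-7 rest on 3.40 to 5.10 and 2.32 to 2.97 CPM, the lowest levels of the 10.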
